A study of Mus musculus with 38 samples.

Results

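Of the 10819 tag clusters measured in mouse soleus muscle by CAGE, 1204 (11.13%) had no GENCODE M21 transcript 5′ end within 500 bp of their highest peak on the same strand. These are called far clusters here, and the other 9615 are called annotated promoters. The choice used the position of the peak and the annotation, and no measured level. Of the 1204 far clusters, 800 (66.45%) lay inside a gene on its own strand, 155 (12.87%) on the opposite strand of a gene, and 249 (20.68%) between genes. The 800 inside genes comprised 398 in coding exons, 232 in introns, 108 in 3′ UTRs, 39 in 5′ UTRs and 23 in exons without coding sequence. The nearest annotated 5′ end on the strand was up to 1 kb away for 128 far clusters, 1 to 10 kb away for 503, and more than 10 kb away for 566, and 7 lay on unplaced contigs with no annotated 5′ end. A 5′ end of RefSeq, a second annotation, lay within 500 bp of 59 far clusters. Chromosome 2 held 239 of the far clusters, of 1005 clusters in all.

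Each of the 38 libraries came from the soleus, a slow postural muscle of the lower leg, of a separate male C57BL/6J mouse, and no allele or transgene was involved. Experiment #1 had 28 libraries, from 8 mice of the Mid group and 4 of each other group (Pre, Post, HiT, Fed and Dep), and experiment #2 had 10 libraries from a separate set of mice, with 2 Pre, 5 Mid and 3 Post libraries. Pre mice were fed and sampled on day 1, Mid mice were fasted to induce torpor and sampled on day 2, and Post mice were given food again and sampled on day 3. The other groups were sampled on day 2, with HiT mice kept at a high ambient temperature, Fed mice kept cool with food, and Dep mice fasted in the cool but kept out of torpor by touching. Sources differ on feeding, since the series' own design lists the HiT mice with food while the Fed mice are called starved in the sample labels. The study's methods describe the HiT mice as fasted and the Fed mice as fed, and that reading is used here.

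CAGE captures the cap at the 5′ end of an RNA and sequences the first bases, so that tags pile up where transcription starts. RNA polymerase II starts most often on a purine that follows a pyrimidine. Tags away from annotated 5′ ends can come from promoters missing in the annotation, from enhancers and the upstream side of promoters, from RNA that was cut and capped again within exons, and from uncapped RNA that escaped the capture. Muscle fibers hold very abundant mRNAs for the sarcomere, the contractile unit, and abundant ribosomal RNA.

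The bases around the peak are shown for far clusters of the 3 kinds on which the results turn, and for 2 annotated promoters to compare with. Each sequence has 30 bases of GRCm38 (mm10), 5′ to 3′ on the strand of the cluster, and the capitals mark the first and second bases after the listed peak. At annotated promoters these were most often a pyrimidine followed by a purine. The listed peak may therefore lie 2 bases before the true start, and letters at the peak would then lie before it. This offset was not tested, and all positions here are relative to the listed peak.
Ttn promoter (chr2:76982534-76982563, minus strand): ccagcccctggctctgGAgcagtcgcgcat
Pdk4 promoter (chr6:5496297-5496326, minus strand): gacatcgggtggtgggAAgacccaagtgtc
Ttn coding exon (chr2:76748006-76748035, minus strand): aaatagcatcctctggGTcaagctgaataa
Xirp2 coding exon (chr2:67512429-67512458, plus strand): tgagtgcctcgagaggGCtacaaatacaag
Slc25a4 coding exon (chr8:46209080-46209109, minus strand): aagggtctctaccaggGTttcagtgtctct
Atp2a2 coding exon (chr5:122491748-122491777, minus strand): ttggttcgaggaagggGAagaaacgattac
Pdk4 coding exon (chr6:5491985-5492014, minus strand): gtttgtagacacgctgGTcaaagttcgaaa
Mknk2 coding exon (chr10:80668678-80668707, minus strand): gctgagtacatggcccCAgaggtggtggag
Phyh coding exon (chr2:4930755-4930784, plus strand): atttccccttccgaccTAgcaacctaattg
Ccdc180 coding exon (chr4:45948751-45948780, plus strand): gtcggagcccccaaagCAgaaagtctcaat
Pfkm intron (chr15:98112060-98112089, plus strand): agtgggtggctcgagcCAgtctaagacaga
Pde4d intron (chr13:109441109-109441138, plus strand): ctgcaagtgtcctgctCAgagctggggcgg
Gm42418 exon (chr17:39847673-39847702, plus strand): ttccgtgggtggtggtGCatggccgttctt
The exon sequences were read from GENCODE M21 transcripts, and those of introns and promoters from the RefSeq promoter table of GRCm38.p6. The coding exon clusters of Ttn, Xirp2, Slc25a4, Atp2a2 and Pdk4 shared a pair or run of G at the peak, whereas those of Mknk2, Phyh and Ccdc180 had a pyrimidine and then a purine after it, like the intron clusters shown. Both promoters shown are among the annotated promoters without that step, and both also have a pair or run of G at the peak.

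Sequence could be read for 648 of the 1204 far clusters, mostly exonic ones, and for 8347 of the 9615 annotated promoters. The pyrimidine and purine step followed the peak at 77.57% of annotated promoters. It followed the peak at 82.05% of the 39 far clusters in 5′ UTRs, 78.95% of 19 between genes and 60.87% of 23 in introns. All 19 between genes and 12 of the 23 in introns were read from RefSeq promoters, and only 7.63% and 9.91% of these clusters could be read, so both shares come from sites picked for a promoter annotation. In contrast, it was found at 11.14% of 377 far clusters in coding exons, 4.63% of 108 in 3′ UTRs and 27.12% of 59 on the opposite strand of a gene. The letters GG, with the peak on either G, were present at 70.03% of the coding exon clusters and 74.07% of the 3′ UTR clusters, against 18.94% of annotated promoters. If the listed peaks are offset as described above, GG would lie just before the start of these RNAs, which was not tested. The motif TATAAA, searched on the strand of the cluster between 40 and 16 bases before the peak, was found at 2.022% of 544 far clusters and 3.171% of 7284 annotated promoters. Far clusters thus held sites with the letters most common at annotated promoters, as in 5′ UTRs, and sites with other letters, as in coding exons and 3′ UTRs.

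Libraries had 18257657 to 39176649 cluster tags in experiment #1 and 9359994 to 20914855 in experiment #2, and levels are given as normalised CPM, tag counts divided by library size after TMM scaling within an experiment. The slow muscle list had all 7 of its genes above 1 CPM in every library, with a sum from 10030 to 30340. The fast glycolytic muscle list also had all 7 genes above 1 CPM in every library. It summed to between 6610 and 11130 CPM in experiment #1 and between 18190 and 25870 in experiment #2. The slow sums of experiment #2, from 20100 to 30340, overlapped these, so the lists do not tell slow from fast muscle there. In experiment #1 the adipocyte list ranged from 159.6 to 1903 CPM. The red blood cell list, with 4 of 5 genes found, ranged there from 1887 to 13750. The macrophage list, with 5 of 6 genes found, was higher in the HiT libraries (136.1 to 313.3 CPM) than in the other libraries of experiment #1 (35.82 to 87.79). The 4 neutrophil markers found summed to 132.6 CPM in the library Dep 1 and to at most 1.562 in the other libraries of experiment #1. In whole muscle, fewer cells of a type and less RNA per cell cannot be told apart.

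Far clusters were low in the middle of their range and very high at the top. Their median was 9.54 CPM in experiment #1, against 18.95 for annotated promoters, and 92 exceeded 100 CPM. They still held 29.1% ± 7.75 (SD, n = 28) of the cluster tags in experiment #1 and 23.1% ± 2.14 (n = 10) in experiment #2. The share ranged from 17.5% in Fed 3 to 51.6% in HiT 4. By group it was 25.8% ± 4.78 in the Pre, 27.6% ± 7.12 in the Mid, 28.8% ± 7.04 in the Post, 35.5% ± 12.7 in the HiT, 26.7% ± 8.07 in the Fed and 31.7% ± 5.75 in the Dep group. The groups overlapped, and the means differed by less than 1 SD of the HiT group. Without the 6 highest clusters of each place, 18 in all, the share was 6.23% ± 1.07 in experiment #1 and 7.51% ± 0.64 in experiment #2.

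**Figure D1:**
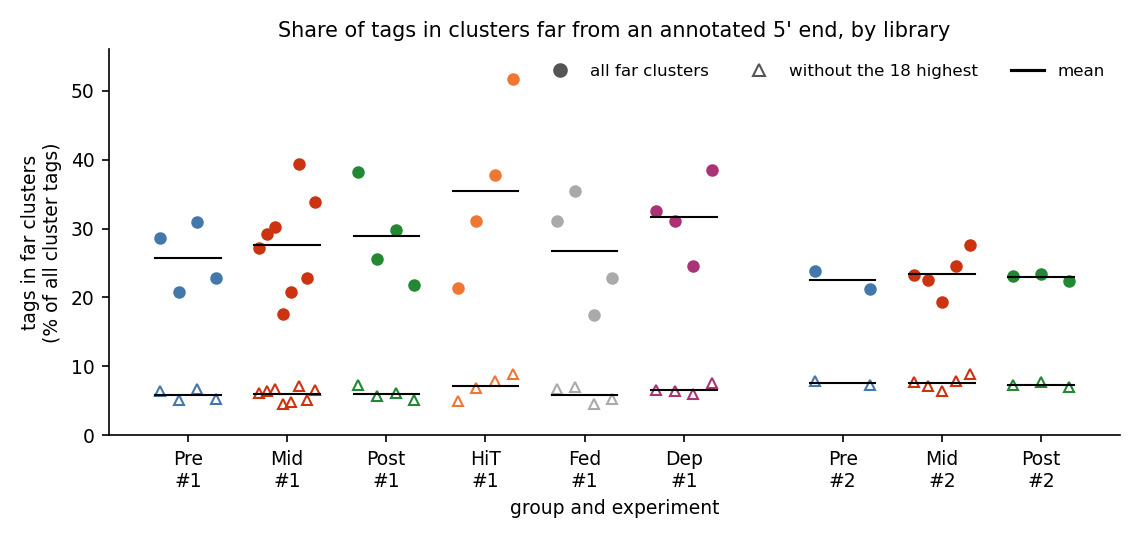
Percent of cluster tags that lay in far clusters (y axis) in each library, by group and experiment (x axis), for all far clusters (filled circles) and without the 18 highest (open triangles), with bars at the group means. The filled circles run from 17.5% (Fed 3) to 51.6% (HiT 4) in experiment #1 and the groups overlap, whereas the triangles stay between 4.52% and 8.95% there.

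The highest far cluster lay in the exon of Gm42418, which RefSeq names Rn18s-rs5, a copy related to 18S ribosomal RNA. It spanned 5076 bp (chr17:39842992-39848067, plus strand) and averaged 95110 CPM in experiment #1 and 78420 CPM in experiment #2. Its peak lay 730 bp from the annotated 5′ end of Gm42418, and its span covered that 5′ end. It counts as far because the distance was taken from the peak. Its 4 Pre libraries had 84810, 52790, 99310 and 57720 CPM, the 8 Mid libraries ranged from 41440 to 162300 (median 80200), and those of the Post group were at 146100, 76060, 97850 and 55040 CPM. The HiT libraries had 53280, 94610, 134200 and 265800 CPM, the Fed libraries 92020, 115600, 40930 and 60620, and the Dep libraries 111600, 102500, 63030 and 152100. The groups overlapped throughout, and the test over the 6 groups was not significant (FDR = 0.359).

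Other very high far clusters lay in an intron of Cmss1 (21980 CPM), between genes on chromosome 3 (22240 CPM), in the 3′ UTR of Lars2, a mitochondrial leucyl-tRNA synthetase gene (16890 CPM), and opposite Jarid2 (6879 CPM). Of the 396 words of 20 bases in the Lars2 cluster, 59 were also present in the transcript AA474408 and 33 in Gm15564, so that its tags may not be assigned to Lars2 with certainty. Across the 28 libraries of experiment #1, 16 of the 17 other highest clusters had a Pearson r of at least 0.93 with the Gm42418 cluster on log2(CPM + 1). The exception was a cluster in the 5′ UTR of Hspb7, a small heat shock protein gene of muscle, with r = 0.20. These correlations share the libraries and their depth, and they are given as a description.

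The Hspb7 cluster lay 923 bp from the annotated 5′ end and differed between the groups. The Pre libraries had 2744, 2403, 2468 and 3165 CPM, the Mid between 3036 and 3841 (median 3332), the Post 4992, 4441, 4143 and 4442, and the Fed 2504, 2306, 2141 and 2805. It was up-regulated from the Pre to Mid (0.34 ± 0.10 SE on the log2 scale, FDR = 0.0131), again from the Mid to Post (0.40 ± 0.10, FDR = 0.00277), and from the Fed to Mid (0.49 ± 0.10, FDR = 0.000711). The Post libraries were all above the Mid libraries. In experiment #2 it did not pass the test from the Pre to Mid (FDR = 0.374) or from the Mid to Post (FDR = 0.0784). A 5′ UTR cluster of Ndufa13, a subunit of respiratory complex I, averaged 1831 CPM and was up-regulated from the HiT to Mid by 0.24 ± 0.08 (FDR = 0.0154).

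A larger set of far clusters varied along with the Gm42418 cluster. With r above 0.8 in experiment #1 and above 0.5 in experiment #2, it had 205 of 1203 other far clusters, against 11 of 9615 annotated promoters. Of the 205, 145 lay inside genes, 18 opposite genes and 42 between genes, on 21 chromosomes. Together with the Gm42418 cluster, 16 of these 206 differed among the 6 groups of experiment #1 by the edgeR test, where 70.6% of all clusters did. Nothing is read from this count, since the 206 were chosen for their likeness, over the same libraries, to a cluster that did not pass that test. From the Pre to Mid 0 passed, with 14 at an unadjusted p below 0.05, and from the Mid to Post 0 passed, with 0 at that level. From the HiT to Mid 19 were lower in the Mid group, where 21.8% of all clusters were, and from the Fed to Mid 3 were higher, where 16.6% were. The median r with the Gm42418 cluster was 0.75 over the 398 coding exon clusters, 0.68 over the 3′ UTR clusters, 0.00 over the intron clusters and −0.04 over the annotated promoters. For the coding exon clusters it was 0.84 within groups, 0.54 in experiment #2, and 0.72 without Fed 3 and HiT 4. The within-group SD on the log2 scale had a median of 0.39 for coding exon clusters and 0.17 for annotated promoters.

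Clusters in exons were found in genes with strong promoters. In all, 444 genes held a far cluster on their own strand, 353 of them a single one, and 116 had no annotated promoter among the clusters. Among the 100 genes with the highest summed promoter level, 52.0% held an exonic far cluster, against 19.25% of the 400 next, 5.4% of the 500 after those, and 0.80% of the other 8077. For intronic far clusters these shares were 16%, 4.25%, 3.0% and 1.14%.

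Ttn, the gene of titin, the giant elastic protein of the sarcomere, held 140 far clusters, of which 135 were in coding exons. They lay between positions 76704733 and 76977161 of chromosome 2, and their levels ran from 0.81 to 581 CPM with a median of 9.16. Neb, the gene of nebulin on the thin filament, held 25, Myh2 21, Atp2a1 13, Myh4 11, Myh1 10 and Myh7 9, while Tnnt3, Ckm, Pdk4 and Atp2a2 held 7 each. The myosin heavy chain genes Myh1, Myh2, Myh4 and Myh7 are near-identical over long stretches, so that tags of their exons can be assigned to the wrong copy.

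The 140 Ttn clusters summed to 2294, 1595, 2381 and 1792 CPM in the Pre libraries and to between 1894 and 4043 (median 2849) in the Mid libraries. The Post libraries had 3437, 1975, 1891 and 1433 CPM, and the HiT libraries 1454, 2559, 2850 and 3762. The Pre and Mid groups overlapped, and the Fed group (1757 to 3508) and the Dep group (2354 to 4367) lay in the same range. From the Pre to Mid, 6 of the 140 clusters were up-regulated (4.29%, against 15.4% of all clusters) and 0 down-regulated, with a median change of 0.53 on the log2 scale, and the Ttn promoter changed by 0.29 ± 0.13 (FDR = 0.0875). From the Mid to Post 0 were up-regulated and 3 down-regulated (2.14%, against 17.5%, with a median of −0.41), and the promoter was down-regulated by 0.38 on the log2 scale (FDR = 0.0241). The strongest Ttn cluster, in a coding exon, averaged 581 CPM and did not pass the test in any comparison. In experiment #2 the 140 clusters summed to 2588 CPM ± 24.3 in the Pre, 2862 ± 595 in the Mid and 2365 ± 519 in the Post group. The Ttn promoter there was at 2616 ± 390, 2350 ± 467 and 2352 ± 538 CPM, without the rise and fall of experiment #1. Of the Ttn clusters with sequence, 71.54% had GG at the peak and 2.308% the pyrimidine and purine step.

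**Figure D2:**
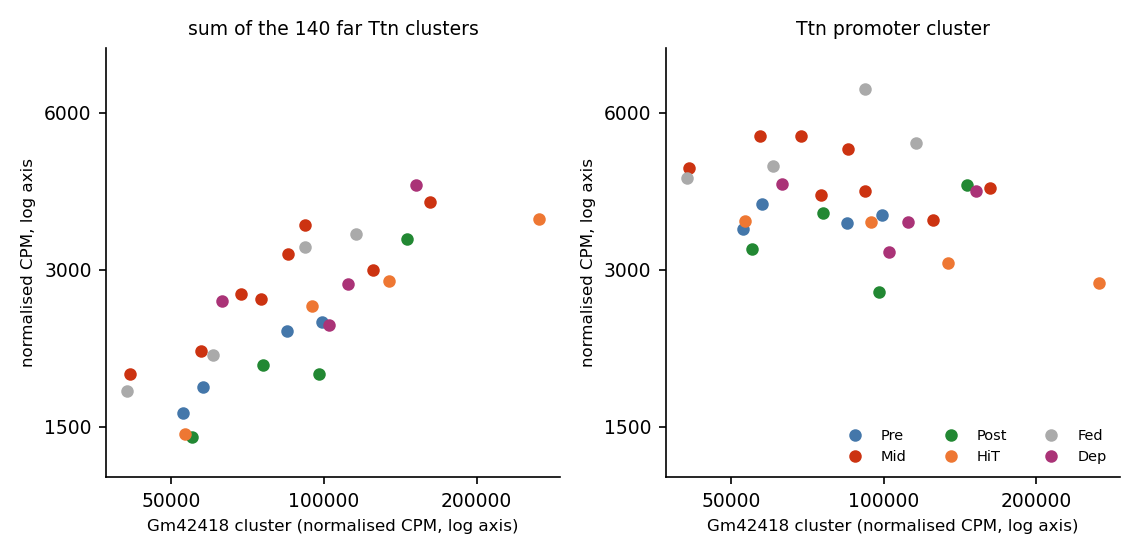
Sum of the 140 far Ttn clusters (left) and the strongest Ttn promoter cluster (right) against the Gm42418 cluster in the 28 libraries of experiment #1, in normalised CPM on log axes, coloured by group. On the left the sum goes up with the Gm42418 cluster from 1433 to 4367 CPM, and on the right the promoter, between 2722 and 6662 CPM, is not arranged along such a line.

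The share of clusters that differed among the 6 groups of experiment #1 was lower for far clusters than for annotated promoters. It was 562 of 1185 far clusters tested, or 47.4%, against a background of 70.6% over all clusters and 73.5% of annotated promoters. The shares differed by place. In 5′ UTRs 32 of 39 far clusters differed and in introns 167 of 230, which were shares of 82.1% and 72.6%. On the opposite strand of a gene 92 of 150 differed and between genes 133 of 237. In 3′ UTRs 37 of 108 differed, and in coding exons 90 of 398, or 22.6%. Within coding exons, 31 of the 42 clusters with the pyrimidine and purine step differed (73.8%), against 41 of 255 with GG at the peak (16.1%) and 10 of 80 with neither (12.5%). Their median r with the Gm42418 cluster was 0.13, 0.76 and 0.72. For annotated promoters with the step, 74.0% differed. These shares count clusters past the threshold and do not measure the size of change. From the Pre to Mid the median absolute log2 change was 0.40 in coding exons and 0.32 in 3′ UTRs, against 0.19 for annotated promoters. The median SE of that change was 0.25 and 0.26, against 0.11.

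**Figure D3:**
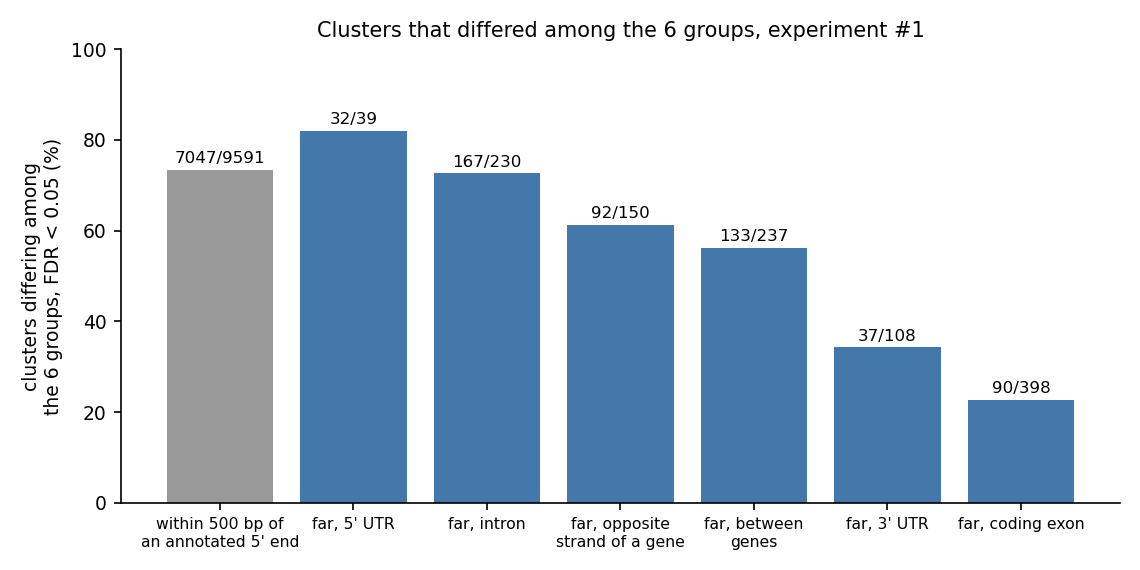
Percent of clusters that differed among the 6 groups of experiment #1 at FDR below 0.05 (y axis), for annotated promoters (grey) and for far clusters by place (blue), with the number of clusters called and tested above each bar. The bars of 5′ UTR and intron clusters (82.1% and 72.6%) stand near that of annotated promoters (73.5%), and those of 3′ UTR and coding exon clusters (34.3% and 22.6%) are lower. The bars do not show the size of change.

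To see how far clusters behaved across the fast, the Pre, Mid and Post groups were compared. From the Pre to Mid 151 of 1185 far clusters were up-regulated (12.7%, against a background of 15.4%) and 87 were down-regulated (7.34%, against 14.8%). From the Mid to Post 104 were up-regulated (8.78%, against 17.5%) and 144 down-regulated (12.2%, against 17.5%). Without TMM scaling the Mid to Post counts were 63 and 125. Among the called clusters the groups did not overlap for 121 of 238 from the Pre to Mid (50.8%), where 30.2% of all clusters were called and 47.4% of those did not overlap. Those of the Mid and Post groups were apart for 130 of 248 (52.4%), where 35.0% of all clusters were called and 47.3% of those did not overlap. Over all far clusters the median log2 change between the Pre and Mid groups was 0.15 (0.111 in experiment #2). It was 0.38 over far clusters in coding exons (0.115 in experiment #2) and 0.01 over all clusters tested (0.004 in experiment #2). Of 108 clusters in 3′ UTRs, 20 were up-regulated from the Pre to Mid by the edgeR test (18.5%, against 15.4%). In that comparison 0 were down-regulated (against 14.8%), and 33 had an unadjusted p below 0.05. From the Mid to Post, 15 of the 108 were down-regulated (13.9%, against 17.5%) and 2 up-regulated (1.85%, against 17.5%). The 3′ UTR clusters up-regulated from the Pre to Mid included those of Pdk4, Txnip and Ppargc1a.

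Pdk4, whose product blocks the entry of pyruvate into the citric acid cycle during fasting, held 7 far clusters, and all 7 were higher in the Mid group than in the Pre, Fed and Post groups, past the FDR threshold each time. The strongest lay in the 3′ UTR (chr6:5483969-5485600, minus strand). It had 16.01, 5.45, 13.5 and 9.07 CPM in the Pre libraries, between 61.3 and 182 (median 129) in the Mid, and 9.07, 5.48, 7.48 and 4.66 in the Post. The HiT libraries had 118, 113, 156 and 197 CPM, the Dep libraries 144, 158, 153 and 183, and the Fed libraries 6.92, 20.4, 13.9 and 5.83. All Mid, HiT and Dep libraries were thus above all Pre, Post and Fed libraries. It changed by 3.58 ± 0.35 from the Pre to Mid (FDR = 8.53e-08) and by −4.30 ± 0.37 between the Mid and Post groups (FDR = 5.46e-09). In experiment #2 these were 3.66 ± 0.24 (FDR = 4.65e-05) and −4.93 ± 0.22 (FDR = 1.16e-06).

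The Pdk4 promoter itself changed by 3.42 ± 0.30 from the Pre to Mid and by −4.37 ± 0.31 from the Mid to Post, close to the 3′ UTR cluster. The coding exon cluster shown above was lower, at 0.73, 0.38, 0.57 and 0.18 CPM in the Pre libraries and between 2.97 and 7.51 in the Mid, and changed by 3.52 ± 0.41 (FDR = 9.12e-07). The 7 clusters together made up 106.8 CPM on average, against 2881 CPM for the promoter. The intron cluster of Pdk4 was the exception in its ratio to the promoter, which fell by 1.43 on the log2 scale from the Pre to Mid (FDR = 0.0329). That ratio rests on few tags, with 0.081 to 0.313 CPM in the Pre libraries, 0.198 to 1.495 in the Mid and 0 in the Post. The 2 tags added to each count weigh on so low a level. In experiment #2 the intron cluster averaged 1.21 CPM in the Pre and 9.07 in the Mid group.

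**Figure D4:**
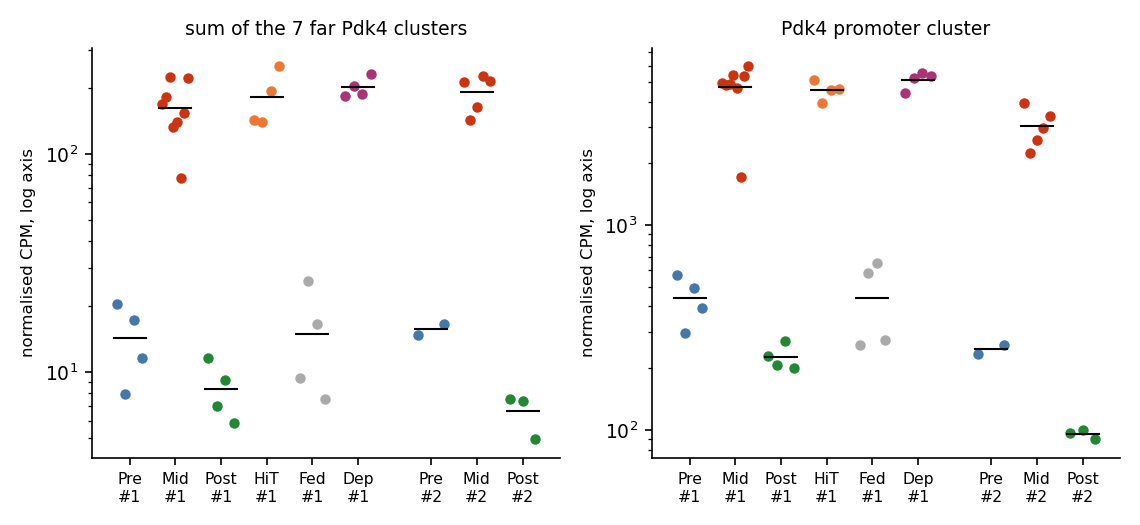
Sum of the 7 far Pdk4 clusters (left) and the Pdk4 promoter (right) in each library by group and experiment, in normalised CPM on log axes, with bars at the group means. In both panels the Mid, HiT and Dep libraries lie above all Pre, Post and Fed libraries, on the left from 77.7 to 251 CPM against 4.93 to 26.1.

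Txnip, an arrestin that limits glucose uptake, had a 3′ UTR cluster at 7.44, 3.75, 5.88 and 3.09 CPM in the Pre libraries, between 10.8 and 28.8 (median 20.6) in the Mid, and 7.26, 5.10, 5.83 and 2.54 in the Post. The Mid libraries were all above the other groups named. It changed by 1.99 ± 0.36 from the Pre to Mid (FDR = 0.000158), and its promoter by 1.59 ± 0.20. Ppargc1a, the coactivator of mitochondrial genes, had a 3′ UTR cluster that changed by 2.26 ± 0.42 (FDR = 0.00019), less than its promoter with 4.78 ± 0.67. The ratio of the Ppargc1a cluster to the promoter fell by 3.01 on the log2 scale from the Pre to Mid (FDR = 4.03e-05). Far and promoter clusters of the same gene therefore moved in the same direction here, and by different amounts for Ppargc1a.

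Several intronic far clusters moved apart from the strongest annotated promoter of their gene, called its promoter here. Other annotated 5′ ends of a gene can lie nearer to the cluster. Whether the RNA across a cluster came from the promoter compared was not tested. A cluster in Nt5c3, a nucleotidase gene, lay 1161 bp from the nearest 5′ end (chr6:56888575-56888775, minus strand). It had 6.75, 10.1, 9.05 and 8.28 CPM in the Pre libraries, between 0.36 and 2.50 (median 0.87) in the Mid, and 7.502, 7.61, 6.88 and 5.05 in the Post. The HiT libraries had 1.62, 2.17, 4.25 and 1.66 CPM, the Fed 6.98, 7.40, 8.80 and 8.16, and the Dep 1.51, 1.01, 0.81 and 0.56. All Mid, HiT and Dep libraries were below all Pre, Post and Fed libraries. It was down-regulated by 3.11 on the log2 scale from the Pre to Mid (SE 0.32, FDR = 1.85e-07) and up-regulated by 2.77 ± 0.33 from the Mid to Post, while the promoter changed by −0.25 ± 0.09 and 0.38 ± 0.09. The ratio to the promoter changed by −2.95 ± 0.33 from the Pre to Mid (FDR = 2.93e-07). In experiment #2 the Nt5c3 cluster changed by −2.96 ± 0.34 (FDR = 0.000951) and by 2.69 ± 0.31.

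An intronic cluster of Mtus1, a gene for a microtubule-associated protein, had 5.62, 7.503, 9.33 and 4.07 CPM in the Pre libraries and between 0.43 and 2.47 in the Mid. It changed by −2.42 ± 0.37 from the Pre to Mid (FDR = 2.02e-05), and the promoter by 0.38 ± 0.08 in the opposite direction. The ratio of the Mtus1 cluster to the promoter changed by −2.87 ± 0.40 (FDR = 5.84e-06). On the minus strand this cluster, with its peak at 41081099, lay upstream of that promoter, with its peak at 41041848. The nearest annotated 5′ end of Mtus1 was 1677 bp from the cluster. A cluster 2745 bp upstream of Slc41a3, a magnesium transporter gene, changed by −2.19 ± 0.27 from the Pre to Mid and by −2.62 ± 0.27 from the Fed to Mid (FDR = 1.07e-07). In an intron of Rbfox2, a splicing regulator, a cluster had 9.32 CPM ± 1.21 in the Pre, 4.0 ± 0.96 in the Mid and 13.2 ± 1.44 in the Post group (SD, n = 4, 8 and 4). It changed by −1.22 ± 0.16 and then by 1.72 ± 0.16 (FDR = 1.35e-08).

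Other intronic clusters were up-regulated in the Mid group. Gbp6, an interferon-induced guanylate-binding protein gene, had an intronic cluster 1516 bp from the nearest 5′ end with 2.32, 0.66, 1.01 and 2.77 CPM in the Pre libraries, between 4.67 and 18.8 (median 10.2) in the Mid, and 0.52, 0.64, 0.52 and 0.52 in the Post. The HiT libraries stayed at 2.10, 2.48, 2.65 and 1.46 CPM, and the Dep libraries had 8.82, 7.72, 9.93 and 14.3. Thus the Mid and Dep libraries were above all others of the 6 groups. The change was 2.70 ± 0.35 from the Pre to Mid, −4.32 ± 0.40 from the Mid to Post (FDR = 1.49e-08) and 2.34 ± 0.34 from the HiT to Mid. The ratio to the Gbp6 promoter changed by −1.98 ± 0.18 from the Mid to Post, and the promoter itself changed by −2.13 ± 0.23.

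Adprhl1, an ADP-ribosylhydrolase-like gene of striated muscle, had an intronic cluster at 0.73, 0.49, 0.41 and 1.51 CPM in the Pre libraries and between 3.803 and 17.9 (median 8.62) in the Mid. The Dep libraries had 13.7, 26.3, 32.9 and 28.6 CPM and the Fed libraries 0.21, 1.27, 0.77 and 1.95. The Mid and Pre groups were apart, and 3 of the 4 Dep libraries were above all Mid libraries. It changed by 3.46 ± 0.45 from the Pre to Mid (FDR = 2.84e-06) and by 1.54 ± 0.32 from the Mid to Dep (FDR = 0.0163). Its ratio to the promoter changed by 3.21 ± 0.36 from the Pre to Mid, and the promoter did not pass the test (FDR = 0.124).

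Tns1, a gene of a focal adhesion protein, had an intronic cluster that was higher in the Mid than in the Pre (2.30 ± 0.38), HiT (2.57 ± 0.39) and Fed group (2.60 ± 0.39), and its ratio to the promoter changed by 2.44 ± 0.37 from the Pre to Mid. In Kdm4a, a histone demethylase gene, an intronic cluster 823 bp from a 5′ end changed by −3.26 ± 0.40 from the Mid to Post, and its ratio to the promoter by −3.01 ± 0.33. An intronic cluster of Rnf115, a ubiquitin ligase gene, changed by 3.69 ± 0.89 from the Pre to Mid (FDR = 0.00257), with 1 Mid library, Mid 7, at 20.4 CPM and the next at 7.12. In experiment #2 the Rnf115 cluster did not pass the test (FDR = 0.664).

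The opposite case, a far cluster that did not pass the test while the strongest promoter of the gene did, was seen in Pde4d, a cyclic AMP phosphodiesterase gene. The intronic cluster had 2.12, 3.54, 3.25 and 2.95 CPM in the Pre libraries and between 2.72 and 5.27 in the Mid, and the groups overlapped. It did not pass the test over the 6 groups (FDR = 0.163), and it changed by 0.28 ± 0.33 from the Pre to Mid. The strongest Pde4d promoter changed by 3.83 ± 0.46, so that the ratio changed by −3.64 ± 0.53 (FDR = 1.04e-05). On the plus strand this promoter, with its peak at 109925093, lay downstream of the cluster, with its peak at 109441124. The cluster was 1059 bp from another annotated 5′ end of Pde4d, so the ratio compares separate sites of the gene. Over all clusters of a gene with a measured annotated promoter, 1164 in all and 627 of them far, the ratio to the strongest promoter of the gene changed for 57 far clusters from the Pre to Mid, 63 from the Mid to Post, 74 from the HiT to Mid, 77 from the Fed to Mid and 5 from the Mid to Dep by limma. The backgrounds for these ratios were 17.5%, 21.2%, 21.6%, 22.8% and 1.03%. Without HiT 1 the count from the HiT to Mid was 140, and leaving out 1 library gave 1 to 9 from the Mid to Dep.

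**Figure D5:**
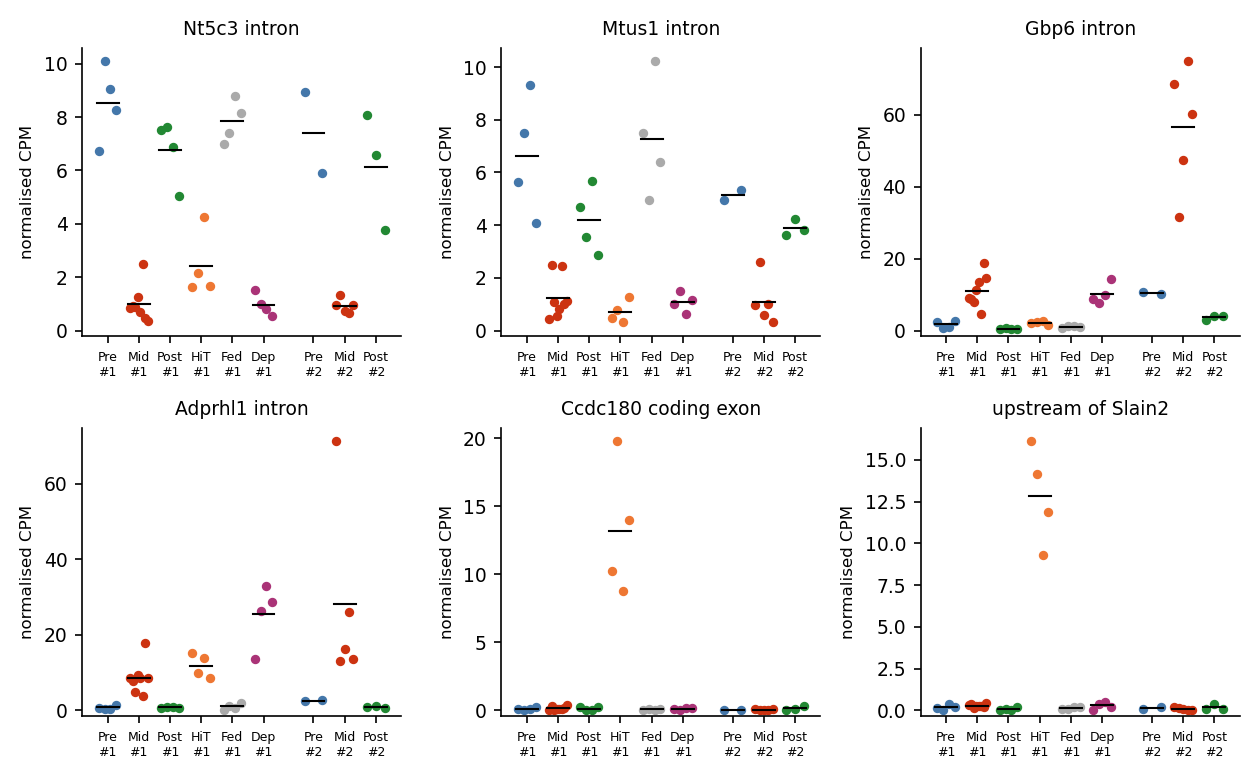
Level of 6 far clusters in each library by group and experiment, in normalised CPM on linear axes with a scale for each panel and bars at the group means. Nt5c3 and Mtus1 intron clusters are low in the Mid, HiT and Dep libraries, Gbp6 and Adprhl1 intron clusters are higher in the Mid and Dep than in the Pre libraries, and the Ccdc180 exon cluster and that upstream of Slain2 are high in the 4 HiT libraries.

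The HiT and Mid groups were compared to set the fast in the warm beside the fast with torpor in the cool. Ambient temperature and torpor differed together here and cannot be told apart. From the HiT to Mid 208 far clusters were higher in the Mid group (17.6%, against a background of 19.2%) and 145 were lower (12.2%, against 21.8%). The groups did not overlap for 125 of the 353 (35.4%), where 41.0% of all clusters were called and 45.5% of those did not overlap. Without the library HiT 3, 90 were lower. Without TMM scaling, which moved the median of all clusters from 0.02 to 0.11, 227 were higher and 99 lower. With every HiT library at 5 CPM or more and more than 5 times above every other library of experiment #1, 5 far clusters stood above all other libraries in the HiT mice, or 0.415% of the far clusters. By the same measure 2 annotated promoters (0.0208%) were found for the HiT group, and 0 clusters for any of the other groups. The macrophage markers, at 136.1 to 313.3 CPM in these libraries, moved with these clusters, and their part in the result was not tested.

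The cluster in a coding exon of Ccdc180, a gene of a coiled-coil protein, had 10.2, 19.8, 8.76 and 13.99 CPM in the HiT libraries, and at most 0.392 in all other libraries of experiment #1. It was lower in the Mid group by −6.49 ± 0.56 on the log2 scale (FDR = 1.7e-09). An intronic cluster of Slc6a19, a neutral amino acid transporter gene, had 10.5, 10.8, 9.13 and 11.5 CPM in the HiT libraries and at most 0.367 in the others (−5.53 ± 0.37, FDR = 5.76e-11). A cluster 1966 bp upstream of Slain2 had 16.1, 14.1, 9.32 and 11.9 CPM against at most 0.530 (−5.46 ± 0.39, FDR = 1.22e-10). Opposite Clic5, a chloride channel gene, a cluster had 14.3, 13.96, 15.9 and 11.6 CPM against at most 1.75 (−4.51 ± 0.54, FDR = 2.47e-07). The fifth lay in an intron of Fgf1. These clusters were chosen for their separation from the other libraries of experiment #1, so that separation restates the choice and is no separate result. In experiment #2, which had no HiT mice, the Mid 9 library had 3.98 CPM at the Clic5 cluster and the next had 0.963.

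Opposite Gm5105, a cluster 3136 bp from the GENCODE 5′ end of 1110002E22Rik had 76.6, 83.2, 61.1 and 59.6 CPM in the HiT libraries, between 0.475 and 4.90 in the Mid and 2.45, 12.03, 4.84 and 4.65 in the Dep. The HiT libraries were again above all others of experiment #1, with a change of −5.18 ± 0.49 to the Mid (FDR = 7.5e-09). In experiment #2, the Mid 9 library had 115 CPM and the other 4 Mid libraries had 2.31 to 11.7. The intronic cluster of Nr1d1, the gene of the clock repressor REV-ERBα, had 8.84, 12.9, 11.9 and 7.70 CPM in the HiT libraries and between 1.08 and 3.38 in the other libraries of experiment #1. It changed by −2.45 ± 0.24 from the HiT to Mid (FDR = 1.16e-08), and its ratio to the promoter by −2.74 ± 0.30, while the Nr1d1 promoter did not pass the test (0.33 ± 0.17, FDR = 0.127).

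Among exonic clusters, that of Xirp2, an actin-binding protein gene of muscle, had 198, 390, 350 and 567 CPM in the HiT libraries and between 116 and 216 (median 178) in the Mid. The lowest HiT library lay within the Mid range, and the change was −1.12 ± 0.22 (FDR = 0.000181), with −0.89 ± 0.10 at its promoter. The coding exon cluster of Mknk2, a kinase gene that acts on translation initiation, had 14.5, 18.8, 13.99 and 16.8 CPM in the HiT libraries and between 31.2 and 57.8 in the Mid, without overlap. It changed by 1.59 ± 0.20 (FDR = 4.28e-07). The 5′ UTR cluster of Lum, a matrix proteoglycan gene, changed by −1.13 ± 0.20 from the HiT to Mid (FDR = 9.55e-05).

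Clusters with large fold changes from the HiT to Mid lay in Myh4, the fast IIb myosin heavy chain gene, whose promoter varied widely between mice. Of its 11 far clusters 9 were up-regulated (81.8%, against 19.2% of all clusters). A coding exon cluster had between 0.077 and 10.6 CPM in the Mid libraries and at most 0.076 in the HiT, a level of few tags (FDR = 0.0025). The Myh4 promoter had between 5.72 and 970 CPM in the Mid and 5.53, 6.51, 2.61 and 3.72 in the HiT libraries. The groups overlapped at the promoter and were apart by a narrow margin at the exon. The 11 clusters together averaged 49.6 CPM in the Mid group, against 323 at the gene's promoters, but 8.18 against 4.67 in the HiT group. In experiment #2 they averaged 24.7, 28.1 and 36.6 CPM in the Pre, Mid and Post groups, against 6.17, 6.99 and 12.5 at the promoters. The part of tags assigned to the wrong myosin copy was not tested. A Smox intron cluster had 50.2 CPM in Fed 1 and 24.1 in Mid 2, and at most 6.98 in the other libraries of experiment #1.

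The Fed and Mid groups were compared to see fasting with torpor against food in the cool on the same day. Fasting and torpor differed together here and cannot be told apart. From the Fed to Mid 206 far clusters were up-regulated (17.4%, against a background of 16.6%) and 111 were down-regulated (9.37%, against 18.6%). Of 108 clusters in 3′ UTRs, 24 were up-regulated (22.2%) and 1 down-regulated (0.926%). Of 150 clusters opposite genes, 40 were up-regulated (26.7%) and 13 down-regulated (8.67%), against the same backgrounds. The groups did not overlap for 145 of the 317 (45.7%), where 35.2% of all clusters were called and 38.2% of those did not overlap. Without TMM scaling, which moved the median of all clusters from 0.00 to −0.12, 134 were up-regulated and 111 down-regulated. A cluster 3443 bp upstream of the hairpin of Mir1a-1, a microRNA gene of muscle, had 272.5, 157, 53.6 and 99.5 CPM in the Fed libraries and between 28.1 and 65.3 (median 33.1) in the Mid. It was down-regulated by 1.84 on the log2 scale from the Fed to Mid (FDR = 1.36e-05), with 1 Fed library within the Mid range. It was up-regulated from the Mid to Post by 0.72 ± 0.28 (FDR = 0.0493) and in experiment #2 by 1.01 ± 0.29 (FDR = 0.0354).

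The coding exon cluster of Atp2a2, the gene of the slow-fiber calcium pump of the sarcoplasmic reticulum, had 12.1, 13.7, 20.2 and 16.6 CPM in the Fed libraries and between 21.8 and 38.6 in the Mid, without overlap. It changed by 0.90 ± 0.18 (FDR = 0.000306) and its ratio to the promoter by 0.87 ± 0.23 (FDR = 0.00647). An intronic cluster of Pfkm, the gene of muscle phosphofructokinase, averaged 244 CPM. It had 490, 262, 255 and 251 CPM in the Fed libraries and between 192 and 365 in the Mid, and passed the test from the HiT to Mid (0.43 ± 0.17, FDR = 0.0427).

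Few far clusters differed between the Dep and Mid mice, both fasted in the cool. From the Mid to Dep 7 far clusters were up-regulated (0.591%, against a background of 1.16%) and 2 were down-regulated (0.169%, against 0.872%). The groups did not overlap for 3 of the 9 (33.3%), where 2.03% of all clusters were called and 47.9% of those did not overlap. Leaving out 1 library gave 2 (without Dep 2) to 12 (without HiT 3) up-regulated and 0 (without Mid 2 or Dep 2) to 6 (without Mid 6) down-regulated. Csrp3, the gene of muscle LIM protein, had a coding exon cluster at 52.1, 62.2, 65.7 and 93.5 CPM in the Dep libraries and between 12.2 and 40 (median 26.3) in the Mid, without overlap. It changed by 1.38 ± 0.23 (FDR = 0.00345), and its promoter by 0.65 ± 0.16 (FDR = 0.0326). Phyh, a peroxisomal oxidation gene, had a coding exon cluster at 15.8, 27.1, 26.8 and 25.3 CPM in the Dep libraries and between 6.03 and 13.9 in the Mid, again apart. It changed by 1.24 ± 0.22 (FDR = 0.00621), and its ratio to the promoter by 1.38 ± 0.24 (FDR = 0.00605). With only the compared groups in the edgeR fit, 0 far clusters passed, 128 had an unadjusted p below 0.05 and the FDR of both was 0.0557, whereas DESeq2 over all groups called 15 up-regulated and 7 down-regulated. A cluster opposite Pnrc1 was down-regulated by 0.43 on the log2 scale (FDR = 0.0498).

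The host genes were also counted by lists of their function. The sarcomere list had far clusters in 35 of its 45 genes, 279 in all. In the Mid group 18 of them were higher than in the Pre group, which is 6.45% against a background of 15.4%, and 0 were lower, while the median log2 change was 0.47, against 0.01 for all clusters. From the Mid to Post 0 rose and 5 fell (1.79%, against 17.5%). From the HiT to Mid 16 rose (5.73%, against 19.2%) and 9 fell (3.23%, against 21.8%). Each of these shares was below its background. The fasting and atrophy list had 14 far clusters in 6 of 31 genes, of which 12 rose and 0 fell from the Pre to Mid (85.7% higher, against 15.4%, median 2.57), 0 rose and 11 fell from the Mid to Post (78.6% lower, against 17.5%, median −3.31), and 14 rose from the Fed to Mid (against 16.6%, median 2.81). Of these 14 clusters 7 belong to Pdk4. The genes of this list were known from earlier results of these data, so its direction is not independent evidence.

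The mitochondrial and substrate oxidation list had 32 far clusters in 19 of 36 genes, with 3 higher in the Mid than in the Pre group (9.38%, against a background of 15.4%), 7 higher than in the Fed group (21.9%, against 16.6%), and 0 lower in either case. The calcium handling list had 27 in 6 of 24 genes, with 0 higher and 1 lower in the Mid than in the Pre group (3.7% lower, against 14.8%), and 3 higher and 0 lower than in the HiT group (11.1% higher, against 19.2%). The matrix list had 7 in 6 of 22 genes, with 0 called from the Pre to Mid, 1 higher from the Mid to Post (against 17.5%), and 1 lower from the HiT to Mid (against 21.8%) and 1 from the Fed to Mid (against 18.6%). The clock list had a single far cluster in its 19 genes, that of Nr1d1.

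Experiment #2 gave the Pre, Mid and Post comparison in other mice. From the Pre to Mid 68 of 1201 far clusters were up-regulated (5.66%, against a background of 5.30%) and 32 were down-regulated (2.66%, against 4.44%). Over both directions the background was 9.74%, and for the Mid to Post it was 16.4%. From the Mid to Post 64 were up-regulated (5.33%, against 7.73%) and 97 down-regulated (8.08%, against 8.65%). These counts rest on few libraries, since 22 and 12 passed from the Pre to Mid without Pre 5, 26 and 11 without Pre 6, and 21 were lower without Mid 12, while 42 were higher from the Mid to Post without Post 6 or without Post 7. With all libraries, of the far clusters up-regulated from the Pre to Mid, 58 were shared, which are 38.4% of those of experiment #1 and 85.3% of those of experiment #2. For the down-regulated it was 28, or 32.2% and 87.5%. From the Mid to Post 47 up-regulated (45.2% and 73.4%) and 88 down-regulated (61.1% and 90.7%) were shared, and 0 were called in opposite directions. Over all clusters the Pre to Mid shares were 30.3% and 87.8% (up) and 23.9% and 79.4% (down). Those from the Mid to Post were 34.3% and 77.3% (up) and 44.4% and 89.6% (down), also with 0 in opposite directions. Of 108 clusters in 3′ UTRs, 17 were higher (15.7%, against 5.30%) and 0 lower (against 4.44%) in the Mid than in the Pre group of experiment #2. The test of a difference in change between experiments called 0 clusters by edgeR's quasi-likelihood test, its likelihood ratio test and DESeq2. An unadjusted p below 0.05 was found there for 42 far clusters (Pre to Mid) and 52 (Mid to Post). Sequencing lane was not balanced in experiment #2, with all Post libraries in lane 4 and 4 of 5 Mid and both Pre libraries in lane 3. With lane as a term, an alternative chosen after seeing the data, 11 far clusters were higher and 45 lower in the Post than in the Mid group.

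Levels of far clusters were also compared between the experiments, as a description with no test. More than 2-fold lower in experiment #2 were 25.7% of the clusters between genes, 22.6% of those opposite genes, 5.5% of those inside genes and 4.47% of annotated promoters. More than 2-fold higher were 26.9%, 32.3%, 15.4% and 10.9%. The experiments used different mice and runs, and these cannot be told apart.

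Some far clusters lay beside an annotated 5′ end. An annotated 5′ end on the other strand lay within 1000 bp upstream of 58 far clusters, 20 inside, 15 opposite and 23 between genes, which is the arrangement of divergent transcription from a promoter. For the 32 with a measured promoter there, 8 pairs had both members called from the Pre to Mid and 6 of these in the same direction, and from the Mid to Post 7 pairs, all in the same direction. From the HiT to Mid both members were called in 10 pairs, 6 of them in the same direction, and from the Fed to Mid in 6 pairs, 4 of them in the same direction. A same-strand 5′ end lay within 5 kb downstream of 101 far clusters inside genes, 20 opposite and 46 between genes. Upstream of Mir208b, the microRNA within Myh7, 5 of the far clusters of Myh7 lay between 3727 and 8987 bp from the hairpin, at 23.8 to 42.8 CPM.

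At the 500 bp limit, the nearest far clusters outside it were those of Tbcb at 501 bp (35.6 CPM in experiment #1), Usp9x at 508 bp (9.29 CPM) and Irs1 at 508 bp (33.5 CPM). The Irs1 cluster was 1820 bp wide and its span covered the annotated 5′ end. Clusters just inside the limit included those of Baz2a at 499 bp (0.446 CPM) and Myl2 at 499 bp (21.4 CPM). The levels on either side of the limit thus overlapped.

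Of the far clusters, 4 rested on a single library of experiment #1, with 10 CPM or more there and over 10 times the next library. They had 56.04 CPM in Mid 8 near Ppp1r1b (chromosome 11, 98333220), 24.8 CPM in Fed 1 at Tpm2, 70.3 CPM in HiT 1 near Myl2 and 10.2 CPM in Mid 1 at Gm32914. The next highest library had at most 0.755 CPM, and the widths of these clusters were 15, 4, 42 and 5 bp. Among annotated promoters 4 met the same measure, S100a8, S100a9, Ngp and Camp, all in Dep 1, and these are the neutrophil markers counted above.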

How the data were processed

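RNA from the soleus of 38 mice was sequenced by nAnT-iCAGE, with 1 library per mouse. The authors mapped the tags, clustered tag starts and deposited per cluster and library the counts (named rescued tag counts in the file headers) and TPM. The submitters' notes name BWA and HISAT2 and the build mm10 (GRCm38), and versions are not given in the sources used here. The counts were used for all tests, and the deposited TPM only for 1 alternative, the share of all mapped tags.

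Clusters were placed against GENCODE M21 by their highest peak. The members, gene lists and named clusters were chosen with earlier results of these data known. Named were the 6 highest clusters of each place, up to 3 clusters per direction and comparison with the largest change among those past FDR 0.05 with a mean of 1 CPM or more and groups that do not overlap, the same for ratios with or without overlap, clusters at the 500 bp limit (1 of them is not reported here), and up to 3 per gene list. Where a cluster was named for groups that do not overlap, their separation in that comparison restates the choice. The clusters of Ndufa13, Mir1a-1, Gm5105, Clic5, Fgf1, the weaker ones of Pdk4 and those resting on 1 library were added after their values were seen.

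Each experiment was fitted on its own with edgeR's quasi-likelihood test (edgeR 4.0.16, R 4.3.3, TMM, clusters with any tag), with Benjamini-Hochberg FDR over all 10776 clusters of experiment #1 or 10816 of experiment #2. Ratios to the strongest promoter of a gene used limma 3.58.1 on log2 values with 2 tags added. DESeq2 1.42.0, the likelihood ratio test, no TMM, other windows, a filter on low counts, a replicate block, lane and leaving out each library were tried. The scripts were tested on simulated data. Values after ± are SE for changes and SD for levels, and log2 changes are on the scale of the fit.

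Replicate numbers name different mice, and 17 of 60 same-number pairs deviated together (r above 0.1, median −0.08), so samples were not paired. No libraries were duplicates, with a lowest chi-square of 12.39 per cluster over 72 pairs. Replicates are separate mice.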

Additional observations from a re-analysis of the deposited data

Results flagged for a closer look

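Within groups of 4 to 10 libraries, 30 of 342 groups of the clusters named above had a library far from the others by Dixon's test, where chance alone flags about 1 in 20 groups. Each value is in normalised CPM, with the next library after it, and no cause was tested.

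In experiment #2, Mid 9 was high at the Adprhl1 intron (71.27, next 26.06), the Rnf115 intron (2.902, next 0.8557), opposite Clic5 (3.977, next 0.9627), opposite Gm5105 (114.8, next 11.67) and the Nr1d1 intron (3.117, next 1.284). Mid 12 was high at the Smox intron (0.7797, next 0.2203).

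In experiment #1, Mid 7 was high at the introns of Adprhl1 (17.90, next 9.289), Kdm4a (14.29, next 9.043) and Rnf115 (20.35, next 7.115). Mid 6 was high at the introns of Nt5c3 (2.496, next 1.239) and Rbfox2 (6.259, next 4.159) and at the 5′ UTR of Irs1 (38.63, next 25.87). Mid 2 was high at the Smox intron (24.06, next 2.698). Fed 1 was high at the introns of Pfkm (490.2, next 261.8), Tns1 (3.143, next 1.239) and Smox (50.18, next 6.984) and upstream of Slc41a3 (25.30, next 18.06), and Fed 4 opposite Gm5105 (1.331, next 0.3196).

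Dep 4 was high at the coding exons of Xirp2 (290.7, next 180.7) and Pdk4 (10.71, next 7.303), and Dep 1 was low at the coding exon of Phyh (15.84, next 25.31). Pre 4 was high at the coding exon of Csrp3 (18.43, next 10.72) and the intron of Baz2a (0.6838, next 0.3307). Post 2 was low at the Rbfox2 intron (11.06, next 13.75) and high at the Gbp6 intron (0.6376, next 0.5243), and Post 4 was high at the Usp9x intron (10.17, next 6.05). HiT 1 was low at the Ndufa13 5′ UTR (1467, next 1570) and high at the Tbcb 5′ UTR (44.98, next 39.38), HiT 2 was high at the Smox intron (0.06894, next 0) and HiT 4 was low at the Irs1 5′ UTR (24.20, next 26.70).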

How the results depend on the processing

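No result changed its direction. With far set at 100 bp there were 2021 far clusters with 38.11% of the tags of experiment #1, and the counts up- and down-regulated were 283 and 214 (Pre to Mid), 239 and 291 (Mid to Post), 387 and 290 (HiT to Mid), 350 and 269 (Fed to Mid) and 21 and 13 (Mid to Dep), with 1122 differing among the groups, and in experiment #2 119 and 83 and then 133 and 184. Beyond 1000 bp the tag share was 19.14% and 1 was down-regulated from the Mid to Dep, and without the Gm42418 cluster the share was 20.06%. The Mid to Dep counts, 7 and 2, became 12 and 4 by the likelihood ratio test, 15 and 7 by DESeq2, 2 and 0 without TMM, and 0 and 0 with only the compared groups. Without TMM, 63 were up-regulated from the Mid to Post and 134 from the Fed to Mid. With lane as a term, an alternative chosen after seeing the data, the Mid to Post counts of experiment #2 were 11 and 45, and those from the Pre to Mid were 49 and 30. The cause of these changes was not tested, apart from the number of clusters that the window sets.

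With the replicate block, 94 were lower in the Mid than in the HiT group and 7 in the Dep than in the Mid group, and 9 ratios changed from the Mid to Dep, and the other counts stayed within 1.5 times. For experiment #2 alone, no paired analysis was possible because its Mid group shares no replicate numbers with its Pre or Post group.

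Leaving out 1 library at a time gave 519 to 619 clusters differing among the groups. The counts up- and down-regulated were 110 to 172 and 72 to 95 (Pre to Mid), 76 to 114 and 121 to 182 (Mid to Post), 179 to 226 and 90 to 193 (HiT to Mid), 150 to 233 and 86 to 114 (Fed to Mid), and 2 to 12 and 0 to 6 (Mid to Dep). HiT 3 gave the 90. In experiment #2 they were 22 to 85 and 11 to 42 (Pre to Mid) and 42 to 66 and 70 to 111 (Mid to Post). There, the counts were 22 and 12 without Pre 5, 26 and 11 without Pre 6, 21 down-regulated without Mid 12, and 42 up-regulated without Post 6 or Post 7. Changed ratios were 43 to 63, 56 to 66, 55 to 140 (140 without HiT 1), 55 to 77 and 1 to 9 in the same order. Of the named changes, 735 kept their side of the threshold and 21 lost it when 1 library was left out, and 157 and 5 under the other settings. For named ratios it was 735 and 21, and 80 and 1. Clusters near 1 CPM rest on few tags, and intervals of counts cover counting error only.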
